A study of Mus musculus with 6 samples.

Results

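The genes described here are 10 members of the Bcl2 family in bone marrow derived macrophages (BMDMs): Bcl2a1a, Bcl2a1b, Bcl2a1d, Mcl1, Bcl2l1, Bcl2, Bax, Bak1, Bcl2l11 and Bid. They were chosen by gene symbol from the table of read counts, a gene's level was that of its most counted transcript, and all 10 were found with at least 1 count in a table of 55254 genes, of which 18430 had a count. The table held 3 control cultures (hnRNPDfl/fl) and 3 M-Δx3,4 cultures (LysCre+hnRNPDfl/fl), all from C57BL/6J mice. All of them were grown for 10 days in medium with supernatant of L929 cells and then received 100 ng/ml LPS for 4 hours, so no untreated cells were compared. In M-Δx3,4 mice the Cre recombinase is expressed from the lysozyme M locus, which acts in myeloid cells, and removes exons 3 and 4 of Hnrnpd, the gene of the AU-rich element binding protein AUF1. The labels do not say whether the cultures came from separate mice, so the p-values measure the spread between these cultures. The question asked of these genes was whether the loss of AUF1 in LPS-treated BMDMs went with other levels of their mRNAs.

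Proteins of the Bcl2 family decide whether the outer membrane of the mitochondrion stays intact. Bax and Bak1 form pores in it that release cytochrome c and so start the caspase cascade, and the survival proteins (A1, encoded by the Bcl2a1 copies, Mcl1, Bcl-xL, encoded by Bcl2l1, and Bcl2) hold them in check. The BH3-only proteins Bim (Bcl2l11) and Bid counter the survival proteins or activate Bax and Bak1 directly. In macrophages A1 and Mcl1 are known as survival genes that respond to bacterial products, and Mcl1 mRNA and protein are short-lived.

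None of the 10 genes passed the threshold between M-Δx3,4 and control BMDMs, which asked for an unadjusted p under 0.05 (quasi-likelihood test of edgeR) and a 2-fold change or more in either direction. Over all 11872 genes tested, 3.07% passed it. None of the 10 had an unadjusted p under 0.05 at any fold change either, against 3.98% of all genes, and the number was also 0 by DESeq2 and by limma-voom. Bid, a BH3-only gene, had 1.53 times the control level, with a 95% interval of 0.938 to 2.50, and was the only member whose libraries did not overlap between the groups, against 8.44% of all genes tested. The survival genes Bcl2a1b and Mcl1 were among the most abundant mRNAs of these cells, and they differed more between the control cultures than between the groups. Without control replicate 1, Bcl2a1b and Bcl2a1d passed the threshold, with higher levels in M-Δx3,4, in a fit in which 11.1% of all genes passed it.

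Sequencing yielded 2503116 to 3846224 counts per library over the representative transcripts. For Hnrnpd the transcript ENSMUST00000072750, whose reads are shared with other isoforms, had 174.2, 102.1 and 68.2 normalized counts in control replicates 1, 2 and 3 and 51.8, 12.4 and 15.7 in M-Δx3,4 replicates 1, 2 and 3. Its log2 fold change was -2.11 ± 0.54 (SE; unadjusted p = 0.00144, past the threshold above; adjusted p = 0.984, edgeR), and the groups did not overlap. The most counted Hnrnpd transcript, with a region of 5678 bases, had 329.1, 182.2 and 102.3 in control and 135.1, 121.8 and 157.2 in M-Δx3,4, which overlapped (log2 fold change -0.57 ± 0.41). These reads were counted in the 3′ UTR, outside the deleted exons, so these levels do not by themselves check the deletion. All 8 macrophage markers had counts, and their summed level ran from 6479 to 7152 in control and from 5421 to 7104 in M-Δx3,4 libraries. Of these markers 3 were higher and 5 lower in M-Δx3,4, and 1 had an unadjusted p under 0.05, as had 3.98% of all genes tested. Of the 10 neutrophil markers 1 (Elane) was at 0, and the sum ran from 1167 to 1514 in control and from 1198 to 1689 in M-Δx3,4. All 8 B cell markers had counts, with sums of 300.6 to 361.5 in control and 148.4 to 166.8 in M-Δx3,4, so the sums did not overlap. Igkc carried most of this difference, and without it the sums were 82.0 to 114.8 and 55.4 to 90.4, which overlapped. Ighm alone did not overlap either (47.8, 61.1 and 75.0 against 43.1, 42.8 and 27.7), as for 8.44% of all genes tested. Of the 5 tested B cell markers 3 were lower in M-Δx3,4 and 2 higher, and 1 (Igkc) had an unadjusted p under 0.05. The 8 T cell markers summed to 46.0 to 64.9 and 27.8 to 43.8, which did not overlap, with Cd3e, Cd3g and Cd2 at 0. All 3 tested T cell markers were lower in M-Δx3,4, and 0 had an unadjusted p under 0.05. Of 7 mast cell markers 6 were at 0. The part of these other cells in the levels below was not tested, and in bulk RNA fewer cells of a type and less RNA per cell cannot be told apart. Over 4667 genes the correlation between libraries (Pearson's r of log2 normalized counts) was lowest between control replicates 1 and 3 (0.764). It was highest between control replicate 1 and M-Δx3,4 replicate 3 (0.971). Control replicate 3 was at 0.808 to 0.858 with the M-Δx3,4 libraries, control replicate 1 at 0.926 to 0.971 and control replicate 2 at 0.921 to 0.965. On the main axis of variation over these genes (first principal component, 62.2% of the variance) control replicate 3 was at -54.4 and control replicate 1 at 30.1. The other libraries lay between them, from -9.2 to 21.2. Fold changes that moved most with control replicates 1 or 3 are therefore also given without them.

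**Figure D1:**
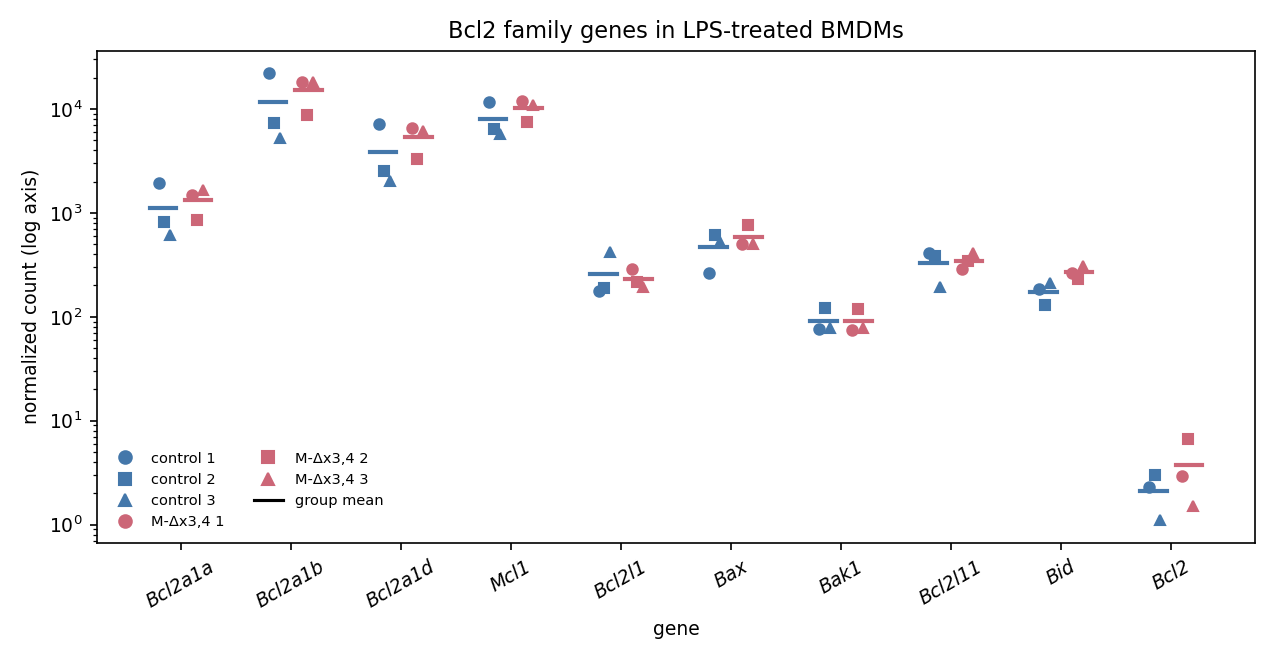
Normalized counts (log axis) of the 10 genes in each library, control in blue and M-Δx3,4 in red, with the mean of each group as a line. Bcl2a1b, Bcl2a1d and Mcl1 lie above the others in every library, Bcl2a1a overlaps Bax, Bcl2 lies at 6.7 normalized counts or less, and the groups overlap for every gene but Bid.

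The Bcl2a1 genes are copies of 1 gene on chromosome 9, each of which encodes an A1 protein that binds and holds BH3-only proteins. On the GRCm38 build their reads were counted over chr9:88962271-88962668 (Bcl2a1a, forward strand), chr9:89207681-89208076 (Bcl2a1b, forward strand) and chr9:88723036-88723433 (Bcl2a1d, reverse strand). These regions hold the annotated 3′ UTR of 149, 147 and 149 bases and 249 bases beyond it. The annotated UTRs of Bcl2a1b and Bcl2a1d had no mismatch and a gap of 2 bases, and all 118 windows of 30 bases in the UTR of Bcl2a1b occur in another copy. Bcl2a1a differed from Bcl2a1b at A62T, counted from 1 at the first base after the stop codon with the base of Bcl2a1b first, besides a gap of 2 bases. Only 75.0% of its windows of 30 bases occur in another copy. The coding sequences of 519 bases were 97.9% (Bcl2a1a and Bcl2a1b), 98.7% (Bcl2a1a and Bcl2a1d) and 98.8% (Bcl2a1b and Bcl2a1d) identical. Because reads of 1 copy can match another, the level of each copy alone is uncertain. The stretch around the substitution is shown for the 3 copies on the transcribed strand, from the GENCODE transcripts, with the 5 bases of an AU-rich pentamer (ATTTA in DNA letters), or the bases in its place, in capitals.
Bcl2a1a: cttggcatttccTTTTAcaaacatgaaact
Bcl2a1b: cttggcatttccATTTAcaaacatgaaact
Bcl2a1d: cttggcatttccATTTAcaaacatgaaact
The windows lie at chr9:88962320-88962349, chr9:89207730-89207759 and chr9:88723355-88723384. AU-rich elements in 3′ UTRs, which hold such pentamers, are the sequences AUF1 is known to bind. The pentamer is present once in the annotated UTR of Bcl2a1b and once in that of Bcl2a1d and is not in that of Bcl2a1a, and 20.4% of the tested genes with a UTR within 20% of the length of Bcl2a1b's hold it. These are matches of letters, not measured binding sites.

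The upstream sequences of the 3 copies are also close to each other. RefSeq windows of 300 bases (250 before and 50 after the gene's start, GRCm38.p6) are shown for comparison of the copies. GAGGAAGT, the core to which the macrophage factor PU.1 is known to bind, is in capitals.
Bcl2a1a: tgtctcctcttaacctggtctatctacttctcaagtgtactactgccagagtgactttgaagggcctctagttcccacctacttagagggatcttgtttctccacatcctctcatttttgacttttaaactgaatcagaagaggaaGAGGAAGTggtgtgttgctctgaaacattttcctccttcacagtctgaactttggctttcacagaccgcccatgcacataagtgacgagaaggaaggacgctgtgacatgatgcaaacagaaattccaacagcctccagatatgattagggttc
Bcl2a1b: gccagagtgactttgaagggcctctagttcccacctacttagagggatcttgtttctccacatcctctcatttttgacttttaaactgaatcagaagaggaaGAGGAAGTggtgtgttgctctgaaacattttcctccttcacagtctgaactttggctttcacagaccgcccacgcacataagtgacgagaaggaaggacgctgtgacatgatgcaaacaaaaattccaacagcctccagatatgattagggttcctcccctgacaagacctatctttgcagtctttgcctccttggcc
Bcl2a1d: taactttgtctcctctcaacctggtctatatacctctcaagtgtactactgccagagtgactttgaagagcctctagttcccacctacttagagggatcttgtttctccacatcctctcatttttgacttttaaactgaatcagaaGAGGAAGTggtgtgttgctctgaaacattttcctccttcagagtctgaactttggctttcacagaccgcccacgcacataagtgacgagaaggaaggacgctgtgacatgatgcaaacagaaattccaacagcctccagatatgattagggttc
They lie at chr9:88956670-88956969 (forward strand), chr9:89199023-89199322 (forward) and chr9:88731801-88732100 (reverse). Over the stretch shared by Bcl2a1a and Bcl2a1b, 254 of 256 bases were the same. Between Bcl2a1a and Bcl2a1d 288 of 294 paired bases were the same, or 94.1% of 306 aligned columns with gaps counted. Between Bcl2a1b and Bcl2a1d 247 of 250 paired bases were the same, or 94.3% of 262 aligned columns. The motif was searched on both strands, occurred once in each of the 3 windows, and was held by 3.20% of the 32851 RefSeq promoter windows. Among the other members it was found only in the window of Bak1, on the reverse strand. The part of this motif in the levels of the genes was not tested.

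Bcl2a1b had the highest mean level of the 10 genes in normalized counts, although Mcl1 was above it in control replicate 3. Its normalized counts were 22157, 7261 and 5280 in control replicates 1, 2 and 3 and 18120, 8843 and 18375 in M-Δx3,4 replicates 1, 2 and 3. Control replicate 1 was the highest of all 6 libraries and control replicate 3 the lowest, 4.20-fold apart, while the M-Δx3,4 libraries lay between them within a 2.08-fold range. The mean was 11566 ± 9225 (SD, n = 3) in control and 15112 ± 5431 in M-Δx3,4, and the log2 fold change was 0.39 ± 0.46 (SE; 95% interval -0.58 to 1.36; adjusted p = 0.984). Bcl2a1d had 7106, 2544 and 2034 normalized counts in control and 6592, 3300 and 6206 in M-Δx3,4, with a log2 fold change of 0.46 ± 0.43 (95% interval -0.46 to 1.38; adjusted p = 0.984). Bcl2a1a, the least abundant copy, had 1934, 810.9 and 615.0 in control and 1473, 855.3 and 1644 in M-Δx3,4, with a log2 fold change of 0.24 ± 0.41 (95% interval -0.64 to 1.12; adjusted p = 0.985). In each copy control replicate 1 was the highest library, control replicates 2 and 3 were the lowest, and the groups overlapped.

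The counts of the 3 copies were also added before the fit, without those of Bcl2a1c, which is in the list of other Bcl2 family genes. If a read was counted at more than 1 copy, which is not known, the sum holds it more than once. The sum was 31197, 10615 and 7929 normalized counts in control and 26185, 12997 and 26224 in M-Δx3,4, and its log2 fold change was 0.39 ± 0.44 (95% interval -0.54 to 1.33; adjusted p = 0.984). It was 1.24 without control replicate 1 (adjusted p = 0.148, unadjusted p under 0.05) and 0.07 without control replicate 3. The share of each copy in the sum was nearly constant. Bcl2a1b took between 66.6% (95% Wilson interval 65.5 to 67.7, control replicate 3) and 71.0% (70.5 to 71.6, control replicate 1) of the summed count, Bcl2a1d between 22.8% (control replicate 1) and 25.6% (control replicate 3), and Bcl2a1a between 5.63% (M-Δx3,4 replicate 1) and 7.76% (control replicate 3). These intervals cover counting error only and take each read as counted at 1 copy. The comparison depended on control replicates 1 and 3, the highest and the lowest control library of each copy. Without control replicate 1 the log2 fold changes were 1.27 for Bcl2a1b (adjusted p = 0.147), 1.23 for Bcl2a1d (adjusted p = 0.157) and 0.89 for Bcl2a1a (adjusted p = 0.247). All 3 had an unadjusted p under 0.05, as had 16.0% of all genes in that fit. Without control replicate 3 the log2 fold changes were 0.05, 0.16 and -0.04.

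Mcl1, which holds Bak1 and Bim, was counted over a region of 2602 bases (chr3:95660824-95663425, forward strand), its 3′ UTR of 2353 bases and 249 bases beyond. It had 11726, 6447 and 5696 normalized counts in control and 11927, 7509 and 11018 in M-Δx3,4. As for the Bcl2a1 copies, control replicates 2 and 3 were the lowest libraries, and control replicate 1 and the M-Δx3,4 replicates 1 and 3 were the highest. The log2 fold change was 0.35 ± 0.33 (95% interval -0.35 to 1.05; adjusted p = 0.984). Without control replicate 1 it was 0.74 (adjusted p = 0.269), with an unadjusted p under 0.05, as had 16.0% of all genes in that fit. Without control replicate 3 it was 0.17. The UTR of Mcl1 holds 8 pentamers, a number that 12.2% of tested genes with a UTR within 20% of its length reach, and 3 of them lie in the longer motif TATTTAT, which 40.1% of those genes hold at least once. The 3 places are shown in the order of the transcript, at chr3:95660882-95660911, chr3:95662578-95662607 and chr3:95662603-95662632, with ATTTA in capitals.
Mcl1 first: gaaaacatgtgtATTTAtgaaggtggactt
Mcl1 second: ttgtacctgtgtATTTAtccttgatcatag
Mcl1 last: catagtttgcttATTTAtgtttaactcttc
The first lies 70 bases after the stop codon, the others at 1766 and 1791. A shorter Mcl1 transcript was counted over the first 249 bases of the same region, which holds the first of these motifs and not the others. That stretch took 13.8%, 25.8% and 16.4% of the region's count in control replicates 1, 2 and 3 and 11.5%, 20.0% and 13.9% in M-Δx3,4 replicates 1, 2 and 3. The 95% Wilson intervals of control replicate 2 (24.7 to 26.9%) and M-Δx3,4 replicate 2 (19.1 to 20.9%) lay above those of the other libraries. The mean shares were 18.67% ± 6.31 and 15.13% ± 4.38 (SD, n = 3), and an exact two-sided permutation test gave p = 0.6, where the smallest p that 3 cultures against 3 allow is 0.1. In normalized counts the stretch held 1624, 1663 and 936.7 in control and 1375, 1499 and 1528 in M-Δx3,4.

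Bcl2l1 encodes the survival protein Bcl-xL and was counted over chr2:152780419-152782144 (reverse strand, 1726 bases). It had 178.8, 187.2 and 416.0 normalized counts in control and 285.6, 217.9 and 192.4 in M-Δx3,4. Control replicate 3, the lowest library for the Bcl2a1 copies and Mcl1, was the highest here, 2.33 times the lowest control library. The log2 fold change was -0.17 ± 0.38 (95% interval -0.98 to 0.64; adjusted p = 0.986), and without control replicate 3 it was 0.35. Its UTR holds 1 pentamer, within TATTTAT, at chr2:152780891-152780920.
Bcl2l1: aagcgtgtctgtATTTAtgtgtgaggagct
Bcl2, the survival gene that gave the family its name, had raw counts of 2, 3 and 1 in control and 3, 7 and 2 in M-Δx3,4 over the 1942 bases of its region (chr1:106710339-106712280, reverse strand). With at most 3 counts in every control library a difference was not detectable at this depth, and no fold change is given. B cells and T cells are known to express Bcl2, and their part in these few counts was not tested.

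**Figure D2:**
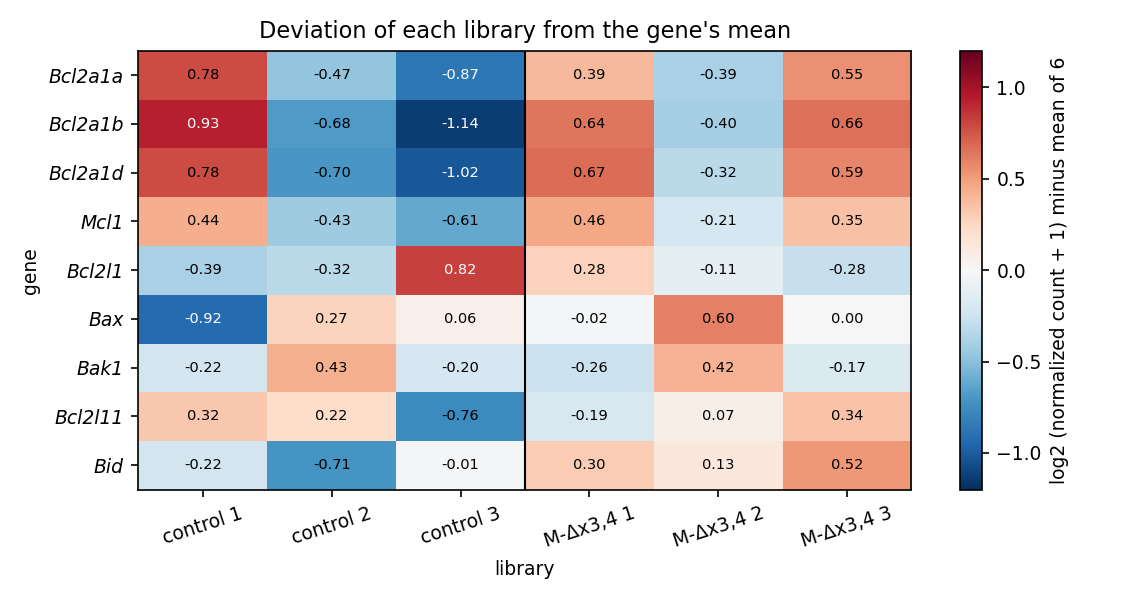
Difference of each library from the mean of the 6 libraries for 9 genes, on the log2 (normalized count + 1) scale, red above and blue below the mean, with control libraries left of the line and M-Δx3,4 libraries right of it. Control replicates 1 and 3 lie at opposite ends for the Bcl2a1 copies (0.93 and -1.14 for Bcl2a1b), while Bcl2l1 is highest in control replicate 3 (0.82). Bcl2 is left out for its low counts.

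Bax and Bak1 encode the pore-forming proteins. Bax was counted over chr7:45461448-45461920 (reverse strand, 473 bases) and had 265.3, 606.6 and 522.9 normalized counts in control and 496.5, 762.1 and 503.2 in M-Δx3,4. Control replicate 1 was the lowest of the 6 libraries and M-Δx3,4 replicate 2 the highest, and the other 4 lay between 496.5 and 606.6. The log2 fold change was 0.34 ± 0.36 (95% interval -0.43 to 1.10; adjusted p = 0.984) and 0.06 without control replicate 1. Bak1 (3 counted parts within chr17:27019563-27022537, reverse strand, 1753 bases) had 76.3, 120.1 and 77.3 in control and 73.8, 118.9 and 78.6 in M-Δx3,4. In each group replicate 2 was the high library, and the log2 fold change was -0.02 ± 0.38 (95% interval -0.82 to 0.79; adjusted p = 0.999). A counted part of Bak1 overlaps 99 bases of the region of Ggnbp1 on the opposite strand, which had at most 1 count in a library. The 3′ UTR of Bax holds no ATTTA, and that of Bak1 holds 2.

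The BH3-only gene Bcl2l11, which encodes Bim, was counted over 4467 bases (chr2:128158330-128162796, forward strand) and had 408.8, 381.4 and 193.2 normalized counts in control and 285.6, 342.5 and 414.8 in M-Δx3,4. Control replicate 3 was the low library. The log2 fold change was 0.09 ± 0.35 (95% interval -0.66 to 0.83; adjusted p = 0.995), 0.28 without control replicate 1 and -0.17 without control replicate 3. Most of its count fell in a short stretch of 382 bases (chr2:128160829-128161210), which took 77.1 to 86.4% of the region's count in control and 81.5 to 88.9% in M-Δx3,4. The proximal 1796 bases took 3.06%, 4.99% and 15.3% in control and 11.7%, 7.22% and 6.50% in M-Δx3,4, and the distal 1319 bases took 12%, 8.40% and 7.65% and 6.71%, 3.61% and 8.30%. None of these shares separated the groups, with exact two-sided permutation p-values of 0.6, 0.9 and 0.2. The UTR of Bcl2l11 holds 6 pentamers, of which 2 lie in TATTTAT, at chr2:128161109-128161138, inside the stretch with most of the count, and at chr2:128161343-128161372, beyond it.
Bcl2l11 first: tatattttgactATTTAttagattagaaag
Bcl2l11 second: gagatgttgtatATTTAttttccgcttatt

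Bid links death receptors to the mitochondrion, since caspase-8 cleaves its protein into the active form. It was counted over chr6:120892605-120894280 (reverse strand, 1676 bases) and had 183.3, 130.1 and 211.4 normalized counts in control and 263.6, 233.1 and 306.2 in M-Δx3,4. The lowest M-Δx3,4 library was above the highest control library. The mean was 175.0 ± 41.3 (SD, n = 3) in control and 267.6 ± 36.7 in M-Δx3,4, with a log2 fold change of 0.61 ± 0.33 (95% interval -0.09 to 1.32; adjusted p = 0.984), and the exact two-sided permutation test gave p = 0.1, the smallest it can give. Leaving out each library in turn gave log2 fold changes of 0.44 to 0.78. The highest, without control replicate 3, had an unadjusted p under 0.05, as had 2.59% of all genes in that fit (adjusted p = 1.00). The region overlaps 487 bases of the region counted for Bcl2l13, which lies on the opposite strand and had 4 to 10 counts in a library, against 130 to 409 for Bid. The UTR of Bid, of 1427 bases, holds no ATTTA, while 80.0% of UTRs within 20% of its length hold it.

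**Figure D3:**
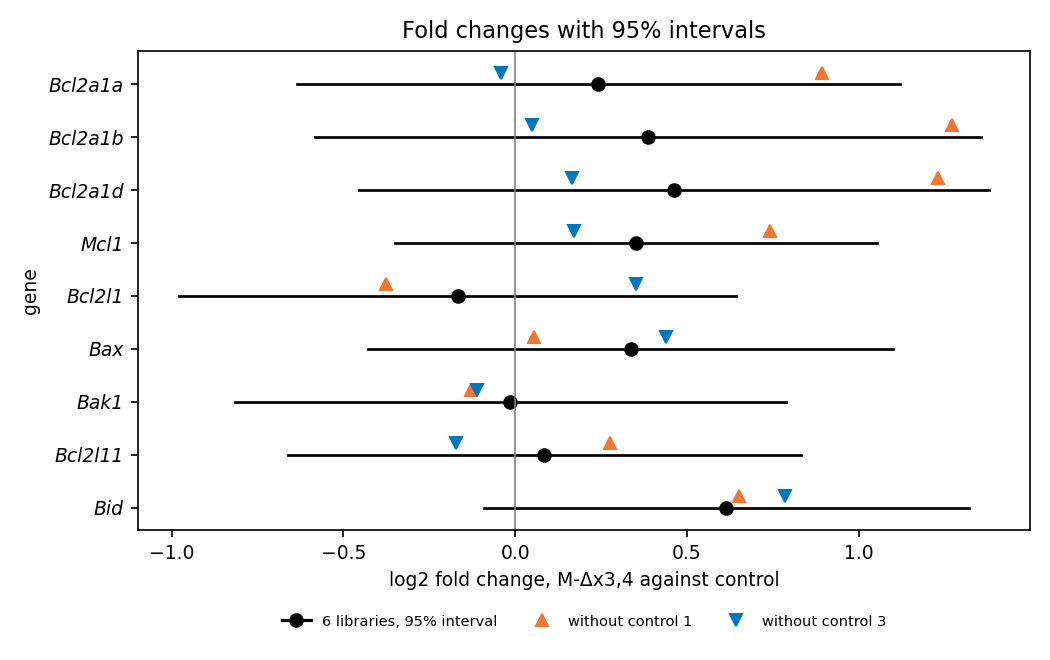
Log2 fold change of 9 genes in M-Δx3,4 against control (black points) with 95% intervals from 6 libraries, and the values without control replicate 1 (upward triangles) and without control replicate 3 (downward triangles). Every interval includes 0, and the values of the Bcl2a1 copies run from about 0 without control replicate 3 to 0.89 to 1.27 without control replicate 1.

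For the 9 members other than Bid, exact two-sided permutation tests of the log2 (normalized count + 1) values gave p-values from 0.3 to 1.0.

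Ordered by normalized counts per kilobase of counted region, the 6-library means were 33700 for Bcl2a1b, 11600 for Bcl2a1d, 3480 for Mcl1, 3070 for Bcl2a1a, 1110 for Bax, 143 for Bcl2l1, 132 for Bid, 75.6 for Bcl2l11, 51.8 for Bak1 and 1.50 for Bcl2. Reads of a 3′ end library gather near the end of a transcript, so a long region lowers this value. Within each library Bcl2a1b exceeded Bcl2a1d by 2.61 to 3.13 times per kilobase, and Bcl2a1d exceeded Mcl1 by 2.33 to 3.96 times. In normalized counts without division by length the order of Bcl2a1d and Mcl1 turned round, with Mcl1 higher in 6 of 6 libraries. Bcl2a1a was above Bax in every library, by 1.33 to 8.66 times per kilobase. Mcl1 and Bcl2a1a overlapped per kilobase, with Mcl1 higher in 5 of 6 libraries. This overlap rests on the division by length, since in normalized counts Mcl1 had 5696 to 11927 and Bcl2a1a 615.0 to 1934. Bcl2l1 and Bid overlapped per kilobase too, with Bcl2l1 higher in 3 of 6. Per kilobase Bid was above Bcl2l11 in 5 of 6 libraries, and Bcl2l11 above Bak1 in 5 of 6. This order of Bid and Bcl2l11 rests on the division by length as well, since in normalized counts Bcl2l11 was above Bid in 5 of 6 libraries. Bax was above Bcl2l1 in every library, by 4.59 to 12.8 times per kilobase. In normalized counts it was less far above, with 522.9 against 416.0 in control replicate 3. The Bcl2a1 copies and Mcl1 together made up 97.5%, 92.3% and 90.5% of the summed normalized count of the 10 genes in control and 96.4%, 92.4% and 96.1% in M-Δx3,4, so the groups overlapped in this share too.

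The genes most like Bcl2a1b over the 6 libraries, of 4666 with a mean above 50 normalized counts, were Bcl2a1d (r = 0.997), Sem1 (r = 0.995) and Bcl2a1a (r = 0.994, Pearson, log2 scale). Sem1, which encodes a small subunit of the proteasome lid, had 1245, 828.9 and 746.8 normalized counts in control and 1114, 856.3 and 1119 in M-Δx3,4. With the main axis of variation over 4667 genes r was 0.867, 0.869 and 0.849 for Bcl2a1a, Bcl2a1b and Bcl2a1d and 0.825 for Mcl1. It was 0.882 for Bcl2l11 and -0.836 for Bcl2l1, and ran from -0.384 to 0.337 for Bax, Bak1, Bid and Bcl2. The library pattern of the Bcl2a1 copies and Mcl1 was thus not particular to them. These correlations describe 6 points that share their library depth and preparation.

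**Figure D4:**
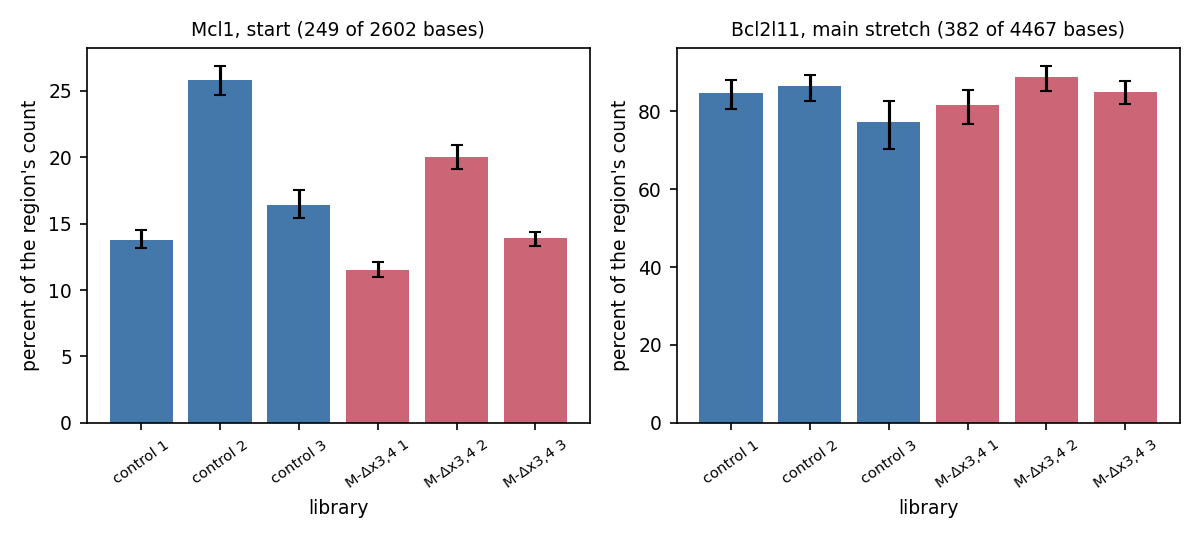
Share of the counted region's reads in the first 249 bases of the Mcl1 region (left) and in the 382 bases that took most of the Bcl2l11 count (right), in percent, by library, with 95% Wilson intervals as error bars. Replicate 2 of each group has the highest share for Mcl1 (25.8% and 20.0%), and the groups overlap for both genes.

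Other genes of the same death pathway were read from lists. Of 12 tested genes among 16 other Bcl2 family genes, 1 had an unadjusted p under 0.05, as had 3.98% of all genes tested, and the median log2 fold change was -0.14, against -0.01 over all genes. The median was 0.31 without control replicate 1. That gene, Bnip3, a mitochondrial protein with a BH3-like domain that acts in the removal of mitochondria, had 25.1, 29.0 and 15.9 normalized counts in control and 61.3, 53.3 and 37.4 in M-Δx3,4. Its log2 fold change of 1.11 ± 0.42 passed the threshold, as 3.07% of all genes did (adjusted p = 0.984), and its libraries did not overlap, as for 8.44% of all genes. Without control replicate 3 it was 0.91, under the threshold on size. The most abundant genes of the list were Bbc3, which encodes the BH3-only protein Puma, with a log2 fold change of -0.26 ± 0.38, and Bad, another BH3-only gene, with -0.40 ± 0.45. None of 12 tested caspase and apoptosome genes had an unadjusted p under 0.05 (median -0.21). Diablo, which encodes a protein that mitochondria release to block inhibitors of apoptosis, was at -0.32 ± 0.35 and Cycs, cytochrome c, at -0.51 ± 0.40.

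None of 11 tested genes of the death receptor pathway had an unadjusted p under 0.05 (median 0.10), and the groups did not overlap for 2 of them, against 8.44% of all genes. Tnfrsf1a, the main TNF receptor of this pathway, had 973.7, 1029 and 1186 normalized counts in control and 868.3, 585.1 and 887.3 in M-Δx3,4, which did not overlap, with a log2 fold change of -0.45 ± 0.31 (adjusted p = 0.984). Cflar, which encodes the caspase-8 inhibitor c-FLIP, had 506.8, 285.3 and 261.4 in control and 576.0, 481.4 and 670.9 in M-Δx3,4, with 0.72 ± 0.34 (adjusted p = 0.984). Its log2 fold change without control replicate 1 was 1.08 (adjusted p = 0.172), past the threshold, as for 11.1% of all genes in that fit. Of 9 inhibitor of apoptosis genes, 1 had an unadjusted p under 0.05, against 3.98% of all genes (median 0.05, and -0.06 without control replicate 3). It was Naip1, a sensor of bacterial secretion systems, with 72.9, 156.2 and 121.6 in control and 34.5, 88.5 and 55.4 in M-Δx3,4 and a log2 fold change of -0.98 ± 0.43 (adjusted p = 0.984). Its value without control replicate 1 was -1.22, which passed the threshold on size too, as 11.1% of all genes did in that fit. Naip1 has close paralogs in the mouse, so its level is uncertain. The ubiquitin ligase genes Birc3 and Birc2 were at 0.28 ± 0.31 and 0.10 ± 0.39. None of 14 regulators of the family had an unadjusted p under 0.05 (median 0.17). Mdm2, the ligase of p53, was at 0.20 ± 0.42 and the co-chaperone gene Bag3 at 0.15 ± 0.30. The median of the 9 Bcl2 family genes other than Bcl2, of which 3 are the Bcl2a1 copies that share reads, was 0.34, and it was 0.65 without control replicate 1 and 0.16 without control replicate 3.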

How the data were processed

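RNA of 3 control and 3 M-Δx3,4 cultures was sequenced with the QuantSeq 3′ kit on an Ion Proton instrument. Per the submitters' processing notes the authors used TopHat2 (2.1.1), Bowtie2 and bedtools on the mm10 build (GRCm38.p6). The authors deposited raw read counts per 3′ UTR region, without normalization. Their table of comparisons holds fold changes and p-values and was not used here. The strand setting and the treatment of reads that match several places are not given in the sources used here.

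Counts of the regions of a transcript were summed. Library factors were DESeq2's median of ratios, and 32475 of 52013 transcripts with a count were tested, those above the median of the normalized counts (4.79) in at least 1 library. Groups, taken from the labels, were compared with edgeR's quasi-likelihood test (4.0.16) and Benjamini-Hochberg adjustment over all of them. The code was tested on simulated data. SE, intervals and p-values in the report come from this fit unless an exact permutation test (scipy 1.17.1) is named. DESeq2 (1.42.0), limma-voom (3.58.1), other scalings and filters, a replicate block and leaving out each library were alternatives.

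Members and lists were chosen with earlier results of these data known. Named were all members, in each list the 2 most abundant genes and those with an unadjusted p under 0.05, the 3 genes most like the most abundant member, and Hnrnpd.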

Additional observations from a re-analysis of the deposited data

How the results depend on the processing

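The number of Bcl2 family genes past the threshold stayed at 0, and so did the number with an unadjusted p under 0.05, under TMM or library-total scaling, DESeq2, limma-voom, no filter, filterByExpr, a minimum of 10 counts in every library, 1 transcript per gene and a replicate block. With 1 library left out the first number ran from 0 to 2 and the second from 0 to 4, the highest values without control replicate 1. In that fit 11.1% of all genes passed the threshold and 16.0% had an unadjusted p under 0.05. Without control replicate 3, Bid alone had an unadjusted p under 0.05, as had 2.59% of all genes in that fit (log2 fold change 0.78, adjusted p = 1.00). No member had an adjusted p under 0.05 in any fit, and the lowest was 0.147. Leaving out a library moved the log2 fold change from -0.041 to 0.894 for Bcl2a1a, from 0.05 to 1.27 for Bcl2a1b, from 0.16 to 1.23 for Bcl2a1d, from 0.17 to 0.74 for Mcl1, from -0.38 to 0.35 for Bcl2l1, from -0.26 to 0.24 for Bak1 and from -0.17 to 0.28 for Bcl2l11. Bak1 was at 0.002 under library-total scaling. Of 156 alternative values of single genes, 143 kept their direction without an unadjusted p under 0.05, 8 changed sign and 5 had an unadjusted p under 0.05. The cause was not tested. Fits without control replicates 1 and 3 were added after seeing the data for the list medians, the summed Bcl2a1 copies and 4 named genes. Without control replicate 1 and control replicate 3 the median log2 fold change was 0.309 and -0.061 for the other Bcl2 family genes, 0.319 and -0.062 for the inhibitors of apoptosis, and 0.055 and 0.008 over all genes tested. Samples with the same number correlated at -0.21, 0.54 and -0.31 over 4667 genes in their deviations from the group means. Control replicate 1 and M-Δx3,4 replicate 3 also reached 0.54. Such deviations are tied to each other within a group of 3, so the values cannot show whether the numbers pair the cultures. With the replicate block the log2 fold changes were 0.58 for Bcl2a1b, 0.40 for Mcl1 and 0.63 for Bid, with 0 members past the threshold. Bcl2 was not tested under 3 of the alternatives, which its counts did not reach, and the longest counted region gave no value for it. Counts limit Bcl2 alone. For the other genes the intervals rest on the spread between 3 cultures a group, which the fit draws toward that of all transcripts tested. Their width therefore does not follow each gene's own spread alone.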
